A study of Mus musculus with 11 samples.

Results

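Marker genes of blood vessel endothelium, 10 in all and in 2 functional classes, were followed through mouse lung: 6 identity genes (Pecam1, Tie1, Tek, Kdr, Cdh5 and Vwf) and 4 leukocyte adhesion genes (Icam1, Vcam1, Selp and Sele). They were taken as the probes that carry these symbols in the scanner files, and all 10 were among the 21870 genes measured. The 11 samples were total lung RNA of Foxa3 knockout mice (KO) and their littermate controls (wild type, WT), each challenged with saline or with ovalbumin (OVA), the protein antigen of a common mouse model of allergic airway disease. There were 3 KO OVA, 2 KO saline, 3 WT OVA and 3 WT saline arrays. All 11 were one-colour Agilent arrays, so each gives 1 brightness for each probe. The comparisons ask how OVA moved the endothelial genes in each genotype and whether loss of Foxa3, a forkhead transcription factor, changed that. Strain, age, the OVA schedule and the part of Foxa3 that the knockout lacks are not given in the sources used here. The labels call the arrays separate lung samples without saying that each is 1 animal, so a p-value measures only the spread between these samples.

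Endothelial cells line every vessel, and in lung the capillary bed makes them one of the most abundant cell types. Their identity genes encode surface receptors, junction proteins and, for Vwf, a stored clotting glycoprotein, all of which resting endothelium makes all the time. The adhesion genes instead serve inflammation: cytokines such as TNF and interleukin 1 act through NF-κB to raise them, selectins let passing leukocytes tether and roll, and ICAM-1 and VCAM-1 then hold them firmly through leukocyte integrins before they cross the vessel wall. Icam1 and Vcam1 are also made by epithelial and stromal cells, so in whole lung they are less specific to endothelium than the selectins. In whole lung, fewer endothelial cells and less RNA per cell cannot be told apart.

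The promoters of Sele, Selp, Icam1 and Kdr are shown first, since the selectin genes had the largest differences among the members and adhesion genes are textbook targets of inducible factors. RefSeq promoters (GRCm38.p6) matched 6 of the 10 genes: Tie1, Tek, Kdr, Icam1, Selp and Sele. The sequences not matched were those of Pecam1, Cdh5, Vwf and Vcam1. Each line gives the 250 bases before the gene's start, on the gene's strand, with motif matches in capitals. Sele is chr1:164047984-164048233 on the plus strand, Selp is chr1:164115014-164115263 on the plus strand, Icam1 is chr9:21015690-21015939 on the plus strand and Kdr is chr5:75978456-75978705 on the minus strand.
Sele: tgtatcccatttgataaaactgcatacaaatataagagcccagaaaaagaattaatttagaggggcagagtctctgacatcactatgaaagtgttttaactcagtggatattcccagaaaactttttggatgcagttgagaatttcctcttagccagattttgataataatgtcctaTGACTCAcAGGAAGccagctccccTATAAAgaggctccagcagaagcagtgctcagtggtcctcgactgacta
Selp: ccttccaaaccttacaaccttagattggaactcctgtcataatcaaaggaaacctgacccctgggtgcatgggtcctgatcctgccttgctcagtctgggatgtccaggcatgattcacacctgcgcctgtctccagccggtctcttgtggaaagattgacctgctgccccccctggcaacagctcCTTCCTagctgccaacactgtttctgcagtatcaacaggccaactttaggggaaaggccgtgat
Icam1: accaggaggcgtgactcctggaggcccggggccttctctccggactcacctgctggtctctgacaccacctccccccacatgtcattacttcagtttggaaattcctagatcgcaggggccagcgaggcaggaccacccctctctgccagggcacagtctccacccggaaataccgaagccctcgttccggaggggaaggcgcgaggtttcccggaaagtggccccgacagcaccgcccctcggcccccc
Kdr: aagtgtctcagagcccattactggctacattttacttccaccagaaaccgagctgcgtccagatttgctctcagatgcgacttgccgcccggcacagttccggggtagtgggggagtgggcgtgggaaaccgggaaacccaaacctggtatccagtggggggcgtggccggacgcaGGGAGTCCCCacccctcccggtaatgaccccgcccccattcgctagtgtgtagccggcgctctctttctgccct
Sele, from left to right, has the AP-1 letters TGACTCA at 73 to 67 bases before the start, the ETS letters AGGAAG at 65 to 60 bases before it and the TATA box letters TATAAA at 49 to 44 bases before it. These 3 matches do not overlap each other. The ETS match of Selp is on the minus strand, 64 to 59 bases before the start. Kdr has the only match to the NF-κB consensus, at 74 to 65 bases before the start, and it matches on both strands.

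Both strands of 32851 promoters were searched for the same letters. The AP-1 letters were in 4.46% of promoters, AGGAAG in 29.5%, TATAAA in 12.4% and the NF-κB consensus in 7.25%. AGGAAG was also in the Tie1 promoter, 219 to 214 bases before its start. The GATA letters AGATAA were in 9.99% of promoters and the forkhead letters TGTTTAC in 3.17%, with no match in the 6 members' windows. A match says only that the letters are there, and a window without one says nothing about the factor.

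Each gene is read through its probes, and 20 probes carried the 10 symbols. Of these, 18 were well above background on at least 2 arrays and were kept. The second Kdr probe and the third Vcam1 probe were well above background on 0 of 11 arrays. The brightest probe stands for its gene. Values are scaled log2 signals: log2 of the processed brightness minus that array's 75th percentile, so 0 is the 75th percentile. A signal of one probe is not set against that of another, since probes differ in how well they bind. The probes of 2 genes are shown because their OVA differences had opposite signs, as described with those genes. None of these differences passed the threshold when each probe was fitted on its own. Each line gives the first 30 of 60 bases, with positions in the mm7 build that the files use: Icam1 at chr9:20905300-20905359 and chr9:20904404-20904463, and Vwf at chr6:125709328-125709387 and chr6:125627345-125627404, all on the plus strand.
Icam1 probe 1: ctgtgggagggtaagcaaccctcccagcac
Icam1 probe 2: cctcttatgtttataaccgccagagaaaga
Vwf probe 1: caagtgaggcctgtgcagctacagcggatt
Vwf probe 3: ggttcctgcgtaaaagtaagttggaactcc
Exon and UTR annotation on that build was not used here.

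Across the series, 71.16% to 78.87% of probes were well above background on an array, and 0 or 1 spots were saturated. The Foxa3 probe was well above background on 0 of 5 KO arrays and on 6 of 6 WT arrays, with scaled log2 signals of -9.18 to -7.73 in KO OVA, -8.72 to -8.54 in KO saline, -4.13 to -3.99 in WT OVA and -6.17 to -5.97 in WT saline. The arrays lay on 3 slides scanned on 1 date. Slides 1 and 2 held all 4 groups, and slide 3 held 1 KO OVA, 1 WT OVA and 1 WT saline array, so each OVA difference was also taken within slides. The number of arrays, 2 or 3 a group, limits the precision of every value.

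The class medians lay on opposite sides of 0 after OVA, in both genotypes. On the KO OVA arrays the median identity gene was 0.45, 0.37 and 0.74 log2 units below its WT saline mean (shifts of -0.45, -0.37 and -0.74), and the median adhesion gene was 1.49, 1.16 and 1.29 above. On the KO saline arrays the identity shifts were 0.01 and 0.06 and the adhesion shifts -0.21 and -0.11. The WT OVA arrays had identity shifts of -0.38, -0.81 and -0.61 and adhesion shifts of 1.02, 1.69 and 1.66, against identity shifts of 0.07, -0.05 and -0.05 and adhesion shifts of 0.11, 0.04 and -0.14 on the WT saline arrays. Every OVA array lay below every saline array for the identity class and above every saline array for the adhesion class, while the median of all genes moved between -0.06 and 0.05 on any array. The gap between the classes widened with OVA by 2.03 log2 units in KO (within-group SD 0.22) and by 2.05 in WT (within-group SD 0.41). The direction of the gap was the same under each alternative run, but its size was 1.35 to 1.59 log2 units where raw spot signals or the authors' table replaced the processed signal. These are descriptions of genes chosen with earlier results of these data known, and they carry no test.

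**Figure D1:**
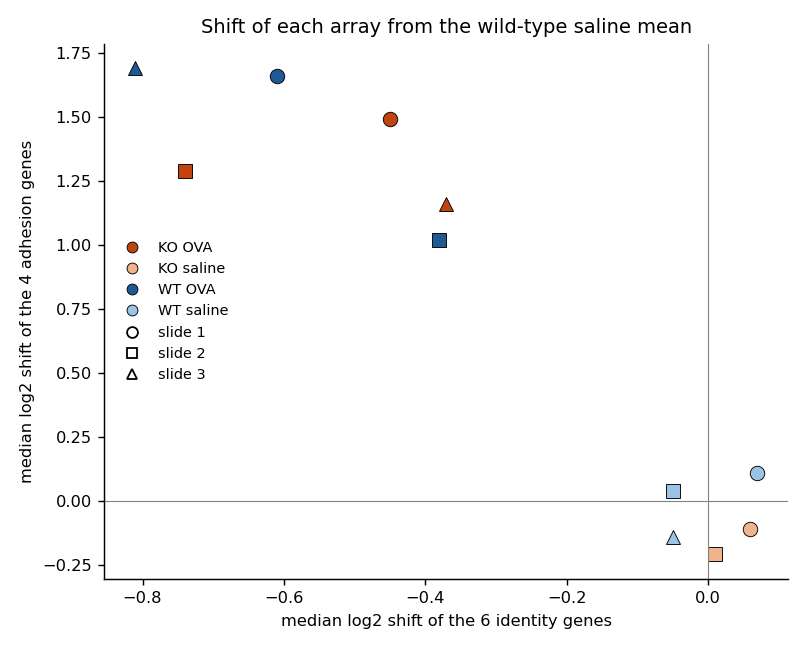
Median log2 shift from the wild-type saline mean of the 6 identity genes (horizontal axis) and of the 4 adhesion genes (vertical axis), 1 point per array, coloured by group and shaped by slide. The 6 OVA arrays of both genotypes lie at the upper left, with adhesion shifts of 1.02 to 1.69 and identity shifts of -0.81 to -0.37, and the 5 saline arrays lie around 0.

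Of the identity genes, 1 of 6 fell in KO after OVA and 4 of 6 fell in WT (limma, adjusted p under 0.05). Across all genes, 2.01% fell in KO and 8.49% in WT. The arrays of OVA and saline did not overlap for 5 of 6 identity genes in KO, all lower, where 26.0% of genes separated downward, and for 5 of 6 in WT, where 21.5% did. The median log2 difference, OVA minus saline, was -0.58 in KO and -0.62 in WT for the identity genes, against -0.03 in KO and 0.00 in WT for all genes. The exception in both genotypes was Vwf. In the plot of the scaled signal of each gene, the identity panels other than Vwf show the OVA points below the saline points of the same genotype.

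**Figure D2:**
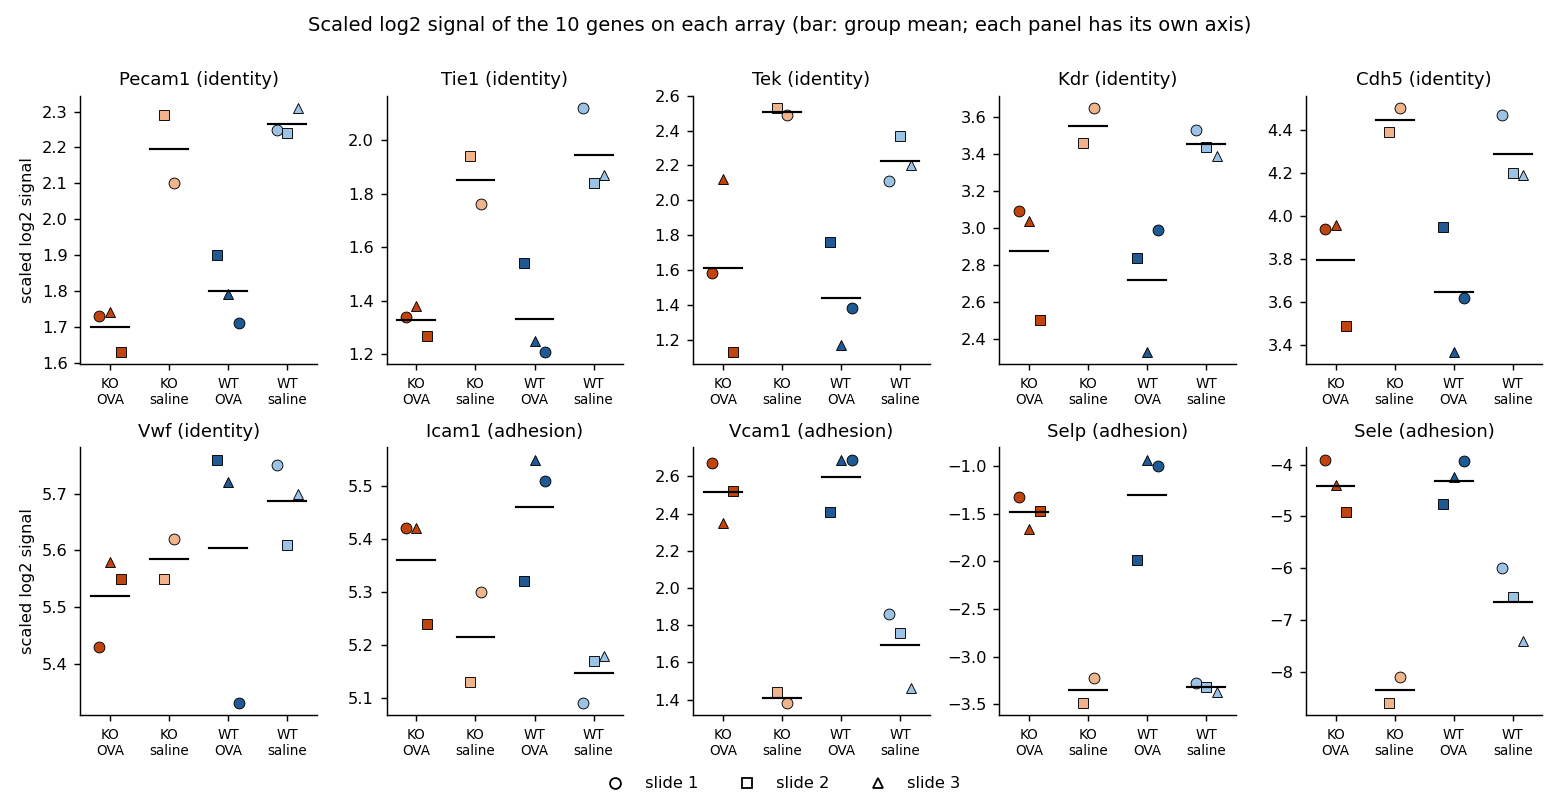
Scaled log2 signal of the 10 genes on each of the 11 arrays, by group, with marker shape giving the slide and a bar at the group mean; each panel has its own vertical axis. Within each genotype, Pecam1, Tie1, Tek, Kdr and Cdh5 are lower on OVA arrays, Vcam1, Selp and Sele are higher, and the Vwf groups overlap.

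Pecam1 encodes CD31, the adhesion molecule of endothelial junctions, which platelets and leukocytes carry too. Its scaled log2 signal was 1.73, 1.74 and 1.63 in KO OVA, against 2.29 and 2.10 in KO saline. In WT OVA it was 1.90, 1.79 and 1.71, against 2.25, 2.24 and 2.31 in WT saline. All 6 OVA arrays were below all 5 saline arrays. Pecam1 fell by 0.50 ± 0.10 (SE) on the log2 scale in KO (limma adjusted p = 0.0266) and by 0.47 ± 0.09 in WT (limma adjusted p = 0.0151). Within slides 1 and 2 the KO differences were -0.37 and -0.67, and within slides 1, 2 and 3 the WT differences were -0.54, -0.34 and -0.52. The KO call ended with the slide as a block (limma adjusted p = 0.062), with only the groups compared in the fit (0.118), and without WT saline 2 (0.051), KO saline 1 (0.197), KO saline 2 (0.0739), KO OVA 1 (0.0614) or KO OVA 3 (0.0856), and the WT call without WT saline 2 (0.0536), WT OVA 2 (0.0552) or WT OVA 3 (0.0643). A second probe with the symbol, whose clone description names another gene, gave -0.78 in KO and -0.48 in WT without passing the threshold.

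Tie1 and Tek encode the TIE receptor tyrosine kinases: Tek (TIE2) binds the angiopoietins, and Tie1 is its co-receptor. Tie1 had scaled log2 signals of 1.34, 1.38 and 1.27 in KO OVA, against 1.94 and 1.76 in KO saline. In WT OVA it had 1.54, 1.25 and 1.21, against 2.12, 1.84 and 1.87 in WT saline. Groups did not overlap in either genotype, and Tie1 fell in WT by 0.61 ± 0.12 (limma adjusted p = 0.0151). In KO the difference was -0.52 ± 0.14 and missed the threshold (limma adjusted p = 0.0527). Tie1 was lower with OVA within each slide, with differences of -0.41 and -0.67 in KO and -0.91, -0.30 and -0.62 in WT. The WT call ended with only the groups compared in the fit (limma adjusted p = 0.0516) and without WT saline 1 (0.0503), WT OVA 2 (0.0601) or WT OVA 3 (0.0628), and KO passed without WT OVA 1 (0.0289). KO also passed with normexp correction without spots of bright local background (0.038), in the authors' value table (0.0356) and among genes well above background on all 11 arrays (0.0408). A trended robust prior (0.0282) and array weights (0.03) passed too, and the slide as a block did not (0.111).

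Tek spread more between the KO OVA arrays than the other identity genes did. On the scaled log2 scale it had 1.58, 2.12 and 1.13 in KO OVA, against 2.53 and 2.49 in KO saline. The WT OVA values were 1.76, 1.17 and 1.38, against 2.11, 2.37 and 2.20 in WT saline. Although the groups did not overlap, neither difference passed: -0.90 ± 0.27 in KO (limma adjusted p = 0.0697) and -0.79 ± 0.24 in WT (0.0511). Without KO OVA 2, the high array, the KO value was -1.16 (limma adjusted p = 0.0184), and WT passed without WT OVA 1 (0.0271), KO OVA 2 (0.0243) or KO OVA 3 (0.0289). WT passed too with normexp without bright spots (0.0314), quantile scaling (0.0469), probes averaged (0.0371) or the authors' values (0.0375). It also did with genes above background on all 11 arrays (0.0365), a trended robust prior (0.0292) or array weights (0.002). In KO that prior (0.0413), array weights (0.0309) and leaving out slide 3 (0.0336) passed. A slide block did not pass (KO 0.118, WT 0.0815). A second Tek probe gave -0.95 ± 0.34 in KO (limma adjusted p over probes 0.104) and -1.01 ± 0.30 in WT (0.0496).

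Kdr encodes VEGF receptor 2, the main signalling receptor for VEGF-A. Its scaled log2 signals were 3.09, 3.04 and 2.50 in KO OVA, against 3.46 and 3.65 in KO saline. WT OVA had 2.84, 2.33 and 2.99, against 3.53, 3.44 and 3.39 in WT saline. The OVA arrays were below the saline arrays in both genotypes. Kdr fell in WT by 0.73 ± 0.20 (limma adjusted p = 0.0384), and in KO the difference was -0.67 ± 0.23 (0.0903). Within slides it was -0.55 and -0.95 in KO and -0.54, -0.60 and -1.06 in WT. The WT call ended with the loss of any 1 of 7 arrays: WT saline 1 (limma adjusted p = 0.0997), WT saline 2 (0.101), WT saline 3 (0.0802), KO saline 1 or 2 (0.0566 each), WT OVA 2 (0.121) and WT OVA 3 (0.061). It also ended with no filter on dim probes (limma adjusted p = 0.0514) and with only the groups compared (0.0619).

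Cdh5 encodes VE-cadherin, the adherens junction cadherin of endothelium. Its scaled log2 signals were 3.94, 3.96 and 3.49 in KO OVA, against 4.39 and 4.50 in KO saline. In WT OVA they were 3.95, 3.37 and 3.62, against 4.47, 4.20 and 4.19 in WT saline. The groups did not overlap in either genotype, and Cdh5 fell in WT by 0.64 ± 0.18 (limma adjusted p = 0.0408). The KO difference was the same size, -0.64 ± 0.20, and did not pass (limma adjusted p = 0.078). It passed in the authors' value table (0.0437), with a trended robust prior (0.046) or with array weights (0.0353), but not with the slide as a block (0.138). A second Cdh5 probe passed in both genotypes, at -0.71 ± 0.18 in KO (limma adjusted p over probes 0.0464) and -0.64 ± 0.16 in WT (0.0305). The brightest probe's WT differences within slides were -0.86, -0.25 and -0.82, and the KO differences -0.55 and -0.90. Its WT call ended with the slide as a block (limma adjusted p = 0.0637), with no filter on dim probes (0.0548) and with only the groups compared (0.0733). It ended too without WT saline 1 (limma adjusted p = 0.115), 2 (0.093) or 3 (0.0767), KO saline 1 or 2 (0.0617 each), WT OVA 2 (0.141) or 3 (0.112), or KO OVA 1 (0.0519), and its KO value passed without WT OVA 1 (0.0471).

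Vwf encodes von Willebrand factor, the clotting glycoprotein that endothelium stores in Weibel-Palade bodies together with P-selectin. Its scaled log2 signals were 5.43, 5.58 and 5.55 in KO OVA, against 5.55 and 5.62 in KO saline. In WT OVA they were 5.76, 5.72 and 5.33, against 5.75, 5.61 and 5.70 in WT saline. The groups overlapped in both genotypes, with 1 low WT OVA array, replicate 3. The difference was -0.06 in KO (95% interval -0.38 to 0.26, limma adjusted p = 0.82) and -0.08 in WT (-0.36 to 0.20, limma adjusted p = 0.687). Without WT OVA 3 the WT difference was 0.06, and within slides it was -0.42, 0.16 and 0.02. Both intervals end above the value of Cdh5 in the same genotype, -0.64 in each, and the difference between Vwf and the other identity genes was not tested. The second Vwf probe gave -0.10 in KO and -0.18 in WT. The third, shown above and well above background on 5 of 11 arrays, gave 0.53 and 0.67, and none of these passed.

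Of the adhesion genes, 3 of 4 rose in KO after OVA and 3 of 4 rose in WT, and both times these were Vcam1, Selp and Sele. Across all genes, 6.18% rose in KO and 10.6% in WT. OVA and saline arrays did not overlap for 3 of 4 adhesion genes in KO, all higher, where 23.3% of genes separated upward, and for 4 of 4 in WT, where 21.2% did. The median log2 difference of the adhesion genes was 1.5 in KO and 1.46 in WT.

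**Figure D3:**
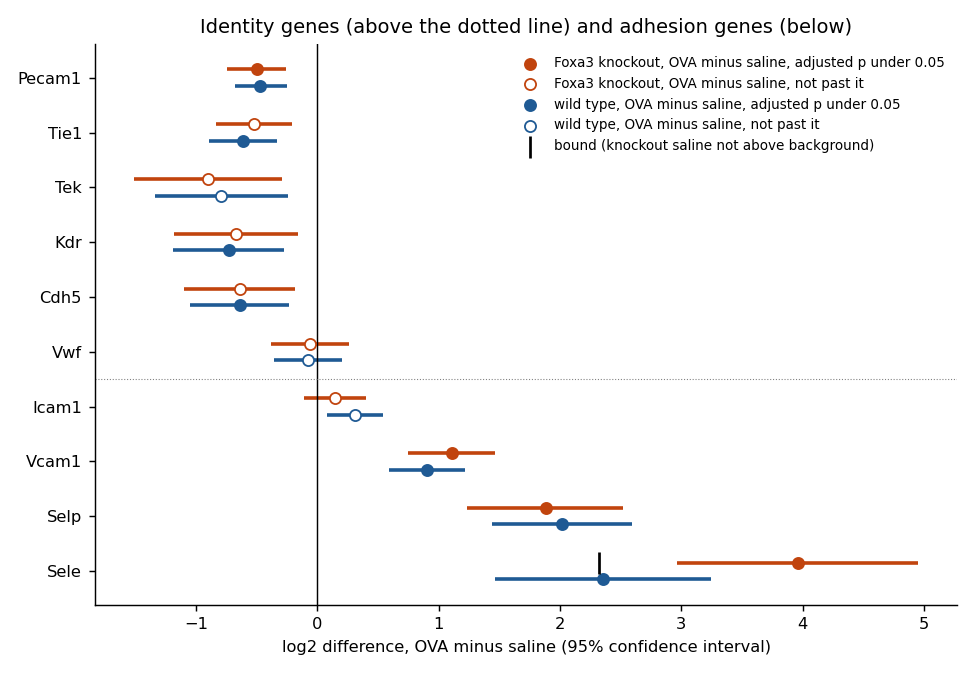
Log2 difference, OVA minus saline, of each gene with its 95% confidence interval from the limma model, for Foxa3 knockout (above) and wild type (below); filled points have an adjusted p under 0.05. The identity genes lie at or left of 0, from -0.90 to -0.06, and the adhesion genes right of 0, upward of 0.15. The Sele point of Foxa3 knockout, at 3.96, is measured against saline arrays that were not above background. The black tick marks the bound, 5-fold in the processed signal, which was not itself tested.

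Sele encodes E-selectin, which in mouse is made almost only by activated endothelium. On the KO OVA arrays its scaled log2 signal was -3.90, -4.40 and -4.91, against -8.61 and -8.11 in KO saline. WT OVA gave -4.76, -4.24 and -3.93, against -6.00, -6.55 and -7.41 in WT saline. All OVA arrays were above all saline arrays. The Sele probe was well above background on all 6 OVA arrays, on 0 of 2 KO saline arrays and on 2 of 3 WT saline arrays. The KO saline level is therefore only a bound, and against that bound the KO OVA mean was 5-fold higher in the processed signal. Other treatments of low signals gave smaller differences, listed below. The test in KO was of the measured log2 difference, 3.96, and not of the bound (limma adjusted p = 0.00352). In WT Sele rose by 2.35 ± 0.39 on the log2 scale (limma adjusted p = 0.00765), with 2.08, 1.79 and 3.18 within slides 1, 2 and 3. The bound compares the KO OVA mean of -4.40 with the lowest signals well above background on the KO saline arrays, which averaged -6.72 (measured mean of the probe -8.36).

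The size of the Sele change depends on how low signals were treated. With normexp background correction and without spots of bright local background, the log2 difference was 0.85 in KO and 1.03 in WT, and in the authors' value table it was 0.99 in KO and 0.78 in WT. Sele passed under both (limma adjusted p = 0.0148 and 0.00386 in KO, 0.00176 and 0.00392 in WT). The KO call ended without KO saline 1 (limma adjusted p = 0.0508).

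Selp encodes P-selectin, which endothelium and platelets hold in granules and which TNF induces in mouse endothelium. Its scaled log2 signals were -1.32, -1.66 and -1.47 in KO OVA, against -3.49 and -3.22 in KO saline. In WT OVA they were -1.99, -0.93 and -1.0, against -3.28, -3.32 and -3.37 in WT saline. The groups were more than 1 log2 unit apart in both genotypes. Selp rose by 1.88 ± 0.28 on the log2 scale in KO, 3.67-fold (limma adjusted p = 0.00775), and by 2.02 ± 0.25 in WT, 4.04-fold (0.00301). Within slides the differences were 1.90 and 2.02 in KO and 2.28, 1.33 and 2.44 in WT. A second Selp probe rose too, by 1.53 ± 0.36 in KO (limma adjusted p over probes 0.0381) and 1.85 ± 0.32 in WT (0.00914). The KO call ended without KO saline 1 (limma adjusted p = 0.0886).

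Vcam1 encodes the ligand of the integrin VLA-4, which eosinophils, lymphocytes and monocytes carry. KO OVA arrays had scaled log2 signals of 2.67, 2.35 and 2.52, against 1.44 and 1.38 in KO saline. WT OVA arrays had 2.41, 2.69 and 2.69, against 1.86, 1.76 and 1.46 in WT saline. No OVA array overlapped a saline array. Vcam1 rose by 1.11 ± 0.16 in KO, 2.15-fold (limma adjusted p = 0.00629), and by 0.90 ± 0.14 in WT, 1.87-fold (0.0058). Its second probe rose by 1.03 ± 0.18 in KO (limma adjusted p over probes 0.014) and by 1.02 ± 0.16 in WT (0.00657). The KO call ended without KO saline 1 (limma adjusted p = 0.0669) or KO saline 2 (0.0502). Leaving out any 1 array ended no WT call of Vcam1, Selp or Sele, with limma adjusted p of at most 0.0308, 0.0176 and 0.0369.

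Icam1 encodes the ligand of the integrins LFA-1 and Mac-1, and it was the adhesion gene that did not pass. Its scaled log2 signals were 5.42, 5.42 and 5.24 in KO OVA, against 5.13 and 5.30 in KO saline, and these groups overlapped. In WT OVA they were 5.32, 5.55 and 5.51, against 5.09, 5.17 and 5.18 in WT saline, with no overlap. The log2 difference was 0.15 ± 0.11 in KO (95% interval -0.11 to 0.40, limma adjusted p = 0.414) and 0.31 ± 0.10 in WT (0.08 to 0.54, limma adjusted p = 0.0588). WT passed without WT OVA 1, at 0.38 (limma adjusted p = 0.0295), with array weights (0.00509), with a trended robust prior (0.028) or among genes well above background on all 11 arrays (0.0481). Other settings gave a smaller WT difference that did not pass. It was 0.16 with quantile scaling (limma adjusted p = 0.28), 0.16 in the authors' value table (0.292) and 0.15 with probes averaged (0.299). The second Icam1 probe, shown above, pointed the other way, at -0.14 ± 0.10 in KO and -0.02 ± 0.09 in WT, and did not pass either.

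A pair of settings ended the calls of both classes in both genotypes, and with them nearly all calls over all genes. Normexp correction that kept spots of bright local background called 0 members in either direction. It also called 0 of all 21870 genes for OVA in either genotype, so this loss is not particular to the members. The same correction without those spots called Vcam1, Selp, Sele, Pecam1 and Tie1 in both genotypes. Over all genes it called 1392 higher and 846 lower in KO, and 3198 higher and 2118 lower in WT. Leaving out slide 1, the other of the pair, left 1 KO saline array. The log2 differences in KO were then -0.61 for Pecam1, 1.93 for Selp and 0.99 for Vcam1.

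No member differed between KO and WT past the threshold. After OVA 0 of 10 members were called, where 0.215% of all genes were, after saline 0 of 10, where 0.0960% were, and 0 of 10 for the difference of the OVA effects, where 0.00457% were (limma adjusted p under 0.05). Counted at an unadjusted p under 0.05, these became 0, 1 and 1 of 10, the single gene being Sele, where 4.95%, 3.25% and 2.57% of all genes were so counted. None of the alternatives run called a member in any of these comparisons. After OVA the KO minus WT log2 differences lay between -0.10 and 0.18 for the identity genes and between -0.18 and -0.08 for the adhesion genes, each by its brightest probe. The second probes of Selp and Icam1 gave larger differences, -0.75 ± 0.32 and -0.36 ± 0.09, and neither passed (limma adjusted p over probes 0.947 and 0.36). The brightest probes' 95% intervals were widest for Sele, -0.98 to 0.80, and Selp, -0.75 to 0.40, so differences of that size cannot be seen here. For Pecam1 the interval was -0.32 to 0.11, and for Vcam1 -0.40 to 0.24.

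After saline, KO and WT arrays did not overlap for 3 of 10 members, where 21.7% of all genes separated in either direction: Sele and Vcam1 were lower in KO saline and Tek was higher. The Sele KO saline arrays, -8.61 and -8.11, were both below the WT saline arrays, -6.00, -6.55 and -7.41. The log2 difference was -1.70 (95% interval -2.70 to -0.71, limma adjusted p = 0.772). Since the KO saline signal was not above background, the size of this difference is not known. Set against the bound, the WT saline mean was 1.05-fold higher. That bound was not tested, and the probe was well above background on 2 of 3 WT saline arrays, so it does not establish that WT was higher. The difference of the OVA effects for Sele, 1.61 ± 0.59 (limma adjusted p = 1), rests on the same 2 arrays below background. For the other members the difference of the OVA effects lay between -0.17 and 0.20. After saline the KO minus WT difference was 0.29 for Tek and -0.28 for Vcam1, and neither passed (limma adjusted p = 1 each).

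Over the 11 arrays, Pearson's r between Pecam1, Tie1, Tek, Kdr and Cdh5 was 0.78 to 0.95, and between Vwf and each of those genes 0.02 to 0.48. Vcam1, Selp and Sele had r of 0.91 to 0.97 with each other, and Icam1 had r of 0.73 to 0.88 with those genes. All of these values share the same arrays, over OVA and saline groups together, so they are a description. The genes most like the identity profile, out of 15916 candidates, were Tprgl and Prickle2 (r = 0.994 each), Myh10 (0.993), Zmynd11 and Pon1 (0.992 each), with log2 differences for OVA in KO of -2.68 (Pon1) to -0.48 (Zmynd11). The genes most like the adhesion profile were Cyp1b1 (0.983), Cxcl13 and Speer4d (0.982 each), Morc1 (0.978) and Lag3 (0.977). A profile is the mean of its members' centred log2 levels, not scaled by their spread. Sele, with the widest range and some arrays not above background, therefore weighs most in the adhesion profile, and Icam1 least. Among the 5 genes most like the adhesion profile, Cxcl13, a chemokine for B cells, had log2 differences of 4.12 in KO and 4.24 in WT.

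The identity genes were set beside 24 further endothelial markers, all well above background on all 11 arrays. After OVA 1 of 24 fell in KO and 9 of 24 in WT, none rose, and the median log2 differences were -0.65 and -0.58. For this list and those below, the shares of all genes were 2.01% lower and 6.18% higher in KO, and 8.49% lower and 10.6% higher in WT. A count of 1 in a list is too small to set against these shares. Ptprb, the phosphatase VE-PTP that restrains TIE2, fell by 1.19 ± 0.28 in KO (limma adjusted p = 0.0365) and by 0.98 ± 0.25 in WT (0.0299). Clec14a, an endothelial surface lectin, fell in WT by 1.38 ± 0.33 (limma adjusted p = 0.0248), with -1.26 ± 0.37 in KO (0.0648). Plvap, the diaphragm protein of fenestrae and caveolae, fell in WT by 0.64 ± 0.14 (limma adjusted p = 0.0217), with -0.55 in KO (0.0665). The summed signal of the list, in units of each array's 75th percentile, was 317 to 438 in KO OVA, against 551 to 575 in KO saline, and 321 to 430 in WT OVA, against 497 to 582 in WT saline. The groups of sums did not overlap in either genotype, and a sum follows its brightest genes most. Of all single genes, 26.0% separated downward in KO and 21.5% in WT.

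Markers of vessel type did not all move the same way. Of 14 arterial, venous and capillary genes, 4 fell and 1 rose in KO, and 6 fell and 1 rose in WT. The riser was Ackr1, the atypical chemokine receptor of venules: -1.22, -1.62 and -0.81 in KO OVA, against -4.85 and -4.21 in KO saline, and -1.59, -0.39 and -0.73 in WT OVA, against -4.17, -4.66 and -4.04 in WT saline (scaled log2 signal). It rose by 3.31 ± 0.38 in KO (limma adjusted p = 0.0038) and by 3.39 ± 0.34 in WT (0.00131), and red blood cells also make it. Apln, the peptide apelin, fell by 0.77 ± 0.17 in KO (limma adjusted p = 0.0327) and by 1.06 ± 0.16 in WT (0.00471). Its receptor gene Aplnr fell by 0.59 ± 0.12 in KO (limma adjusted p = 0.027) and by 0.82 ± 0.11 in WT (0.00369). Of 5 lymphatic endothelial genes 0 were called in KO and 1 fell in WT, Flt4 (VEGF receptor 3), by 0.84 ± 0.22 (limma adjusted p = 0.0307).

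Of 8 TIE and VEGF ligands none passed in KO (median -0.57) and 3 fell in WT (median -0.50). The 3 were Angpt2, a TIE2 ligand, by 0.64 ± 0.18 (limma adjusted p = 0.04), Angpt4, another, by 0.71 ± 0.19 (0.0346), and Vegfc, a VEGF receptor 3 ligand, by 0.54 ± 0.15 (0.0408). Pgf, a ligand of VEGF receptor 1, had differences above 0, at 0.41 ± 0.22 in KO and 0.59 ± 0.19 in WT, which did not pass (limma adjusted p = 0.23 and 0.0632).

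Cytokine genes and NF-κB feedback genes were counted next. Of 7 cytokine genes known to induce the adhesion molecules, 4 rose in each genotype, where 6.18% of all genes rose in KO and 10.6% in WT. The medians of these cytokine genes were 1.23 in KO and 1.43 in WT. Tnf rose by 1.23 ± 0.29 in KO (limma adjusted p = 0.0379) and 1.43 ± 0.26 in WT (0.0107), and Lta, lymphotoxin alpha, by 1.97 ± 0.39 (0.0222) and 2.21 ± 0.35 (0.00623). Il1a passed in KO at 0.95 ± 0.18 (limma adjusted p = 0.0172) and had 0.39 ± 0.16 in WT (0.111), with a difference of the OVA effects of 0.56 that did not pass (adjusted p = 1). Of 10 NF-κB feedback genes, which NF-κB itself induces, 6 rose in each genotype, with medians of 0.71 in KO and 0.79 in WT. Nfkbie, an NF-κB inhibitor, rose by 1.33 ± 0.18 in KO (limma adjusted p = 0.00547) and 1.40 ± 0.16 in WT (0.00217). The subunit genes Relb and Nfkb2 rose by 0.92 ± 0.14 and 0.90 ± 0.16 in KO (limma adjusted p = 0.00799 and 0.0156) and by 0.93 ± 0.13 and 1.00 ± 0.15 in WT (0.00356 and 0.00488). These genes are made by many cell types of the lung.

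On the leukocyte side of the cascade, 2 of 12 counter-receptor genes rose in KO (median 0.56), and 7 rose and 1 fell in WT (median 0.80). Among all genes 6.18% rose in KO, and 10.6% rose and 8.49% fell in WT. Selplg encodes PSGL-1, the main selectin ligand, and rose in WT by 1.03 ± 0.21 (limma adjusted p = 0.0164), with 0.72 ± 0.24 in KO (0.0874). Cd44, an E-selectin ligand, rose by 0.72 ± 0.16 in KO (limma adjusted p = 0.0346) and 0.74 ± 0.15 in WT (0.0142). Itgax, an integrin subunit that lung macrophages and dendritic cells also carry, rose by 2.09 ± 0.37 in KO (limma adjusted p = 0.013) and 1.65 ± 0.33 in WT (0.0144).

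Of 8 enzymes that build selectin ligands, 2 rose in KO and 3 in WT. St3gal4, a sialyltransferase, rose by 1.17 ± 0.27 in KO (limma adjusted p = 0.0347) and 1.04 ± 0.24 in WT (0.0224). B4galt1, a galactosyltransferase, rose by 0.67 ± 0.14 in KO (limma adjusted p = 0.0261) and 0.53 ± 0.12 in WT (0.0245). Gcnt1, a branching enzyme, rose in WT, by 0.50 ± 0.14 (limma adjusted p = 0.04). Of 12 other adhesion and diapedesis genes 11 were measured, all but Glycam1: 1 fell in KO, and 1 fell and 1 rose in WT, with medians of -0.19 in KO and -0.08 in WT. Their differences ran between -0.67 and 0.36 in KO and between -0.74 and 0.61 in WT. Cd99l2, which takes part in crossing of the vessel wall, fell by 0.67 ± 0.16 in KO (limma adjusted p = 0.0385) and 0.74 ± 0.14 in WT (0.0134), and Cd47, an integrin-associated protein, rose in WT by 0.31 ± 0.08 (0.0352). Icam2, an integrin ligand of resting endothelium, had -0.61 ± 0.19 in KO and -0.53 ± 0.17 in WT and did not pass (limma adjusted p = 0.072 and 0.0538).

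**Figure D4:**
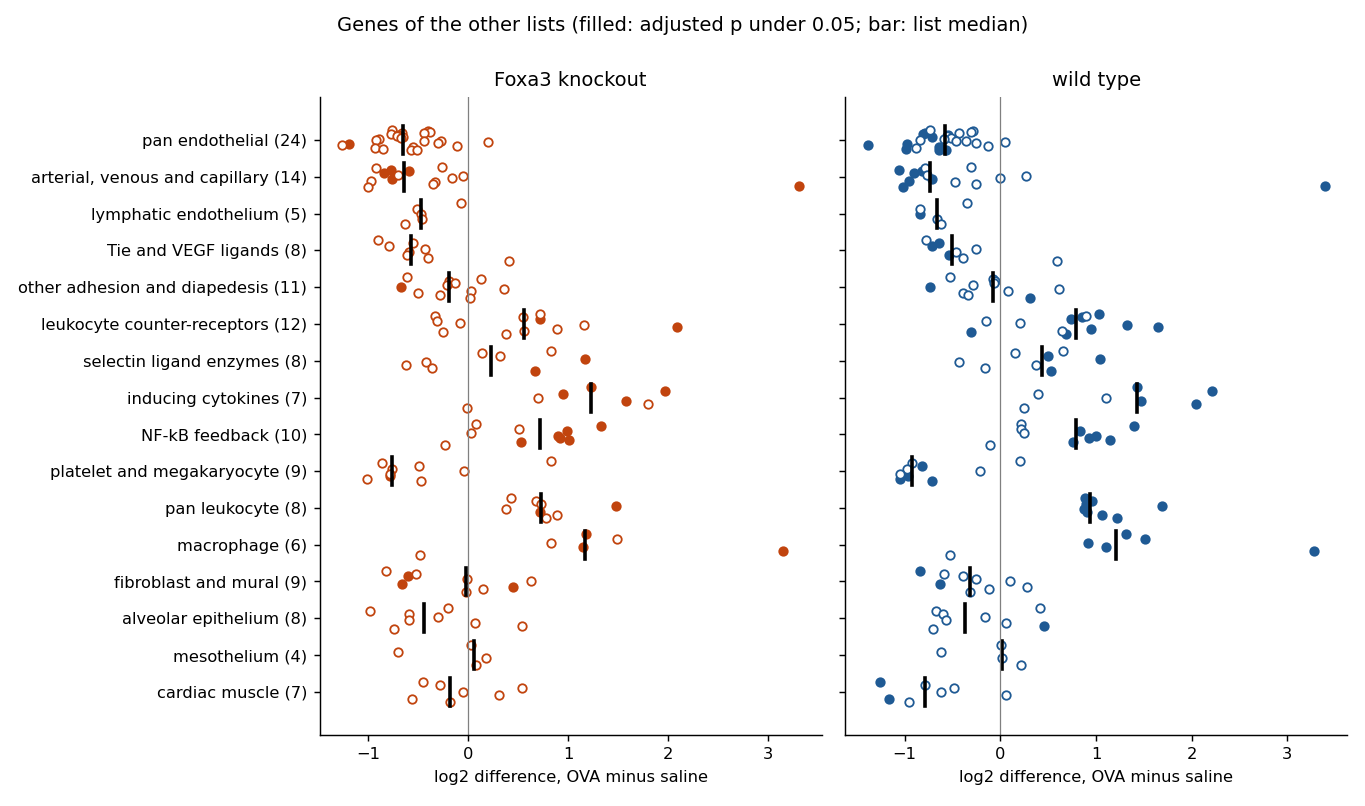
Log2 difference, OVA minus saline, of each gene of the further lists, 1 point per gene, in Foxa3 knockout (left) and wild type (right), with the number of genes in brackets, filled points for adjusted p under 0.05 and a bar at the list median. Most genes of the endothelial lists lie left of 0. Ackr1, at 3.31 in knockout and 3.39 in wild type, Cd34, at 0.20 and 0.05, and Gja5 in wild type, at 0.27, lie right of it, and the cytokine, NF-κB and leukocyte lists lie mostly right of 0.

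Markers of other cells moved in the same comparisons, in which 6.18% of all genes rose and 2.01% fell in KO, and 10.6% rose and 8.49% fell in WT. Of 8 general leukocyte genes 2 rose in KO and 8 in WT, and their summed signal was 75.6 to 107 in KO OVA, against 47.5 to 47.6 in KO saline, and 75.5 to 127 in WT OVA, against 34.1 to 59.3 in WT saline. Of 6 macrophage genes 3 rose in KO and 5 in WT, with sums of 27.8 to 38.3 in KO OVA, against 21.2 to 22 in KO saline, and 32.1 to 38.3 in WT OVA, against 16.8 to 21.4 in WT saline. Msr1, a scavenger receptor, rose most among the 3 macrophage genes with the smallest p, by 3.15 ± 0.52 in KO (limma adjusted p = 0.0102) and 3.28 ± 0.46 in WT (0.00427). Platelets share Pecam1, Selp and Vwf with endothelium, and of 9 platelet and megakaryocyte genes 1 fell in KO (median -0.76) and 4 fell in WT (median -0.92), while Selp rose. The summed platelet signal was 7.82 to 10.9 in KO OVA, against 7.53 to 7.66 in KO saline, and 7.05 to 8.5 in WT OVA, against 7.44 to 10.1 in WT saline. Sums add signals that are not log2, so the brightest gene, Pf4, weighs most here. Pf4 had 0.83 ± 0.27 in KO and 0.21 ± 0.24 in WT and did not pass (limma adjusted p = 0.085 and 0.586), while the list medians were below 0.

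Markers of epithelial, stromal, mesothelial and cardiac cells were checked in the same way. Of 8 alveolar epithelial genes 0 were called in KO (median -0.44) and 1 rose in WT, Epcam (median of the list -0.36), with sums of 418 to 475 in KO OVA, against 508 to 582 in KO saline, and 423 to 572 in WT OVA, against 409 to 442 in WT saline. These sums mostly follow the brightest gene, Sftpc, with log2 differences of -0.20 in KO and 0.41 in WT. Of 9 fibroblast and mural genes 2 fell and 1 rose in KO (median -0.02), and 2 fell in WT (median -0.32), with sums of 67.4 to 84.2 in KO OVA, against 72.2 to 78.2 in KO saline, and 71.2 to 74.3 in WT OVA, against 75.1 to 79.5 in WT saline. Of 4 mesothelial genes 0 were called in either genotype. Of 7 cardiac muscle genes 0 were called in KO and 2 fell in WT (median -0.79), with sums of 32.7 to 53.5 in KO OVA, against 42.5 to 52 in KO saline, and 33.9 to 60.3 in WT OVA, against 66.6 to 89.4 in WT saline. No defining marker of these lists was at 0: every gene was well above background on all 11 arrays. The part of leukocytes, platelets and the other cells in the endothelial values was not tested.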

How the data were processed

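Total RNA of lung was measured on 11 one-colour (Cy3) Agilent arrays, grouped by genotype and challenge as labelled. Per the file headers, each deposited scanner file gives background-subtracted spot intensity from Feature Extraction 9.5.1.1, with the raw and local background intensity beside it (the submitters' processing notes name version 9.1). The authors also deposited a table of log2 values, whose columns have medians of 7.669 to 7.674, and within each array its ranks follow the median-scaled raw signal (rank correlation 0.9992 to 0.9996). How it was normalized is not given in the sources used here, and it served as an alternative.

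Processed intensity was taken as log2 and scaled by each array's 75th percentile. Spots flagged as uneven or as outliers were dropped and spots of a probe averaged. A probe was kept if it stood well above background on 2 or more of the 11 arrays (32946 of 41174 probes, 21870 genes), and the brightest probe stood for its gene. Of the probes, 23062 were named by RefSeq accession through a GRCm38.p6 table, 6580 carried a current symbol and 3072 an older synonym, 8440 kept the name in the file and 20 were those of the 10 genes. Probe coordinates (mm7) come from the files.

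A single fit with limma 3.58.1 in R 4.3.3, a mean for each group, over all 11 arrays gave two-sided tests, adjusted by Benjamini-Hochberg over all genes, with a threshold of 0.05 (prior degrees of freedom 1.95, residual 7). The script was tested on simulated data. Effects of OVA were taken in knockout and in wild type, genotypes were compared under OVA and under saline, and the OVA effects were set against each other. Where a group was not well above background on any array, a fold is given as a bound: the bright group's mean against, per array, the higher of the lowest signal well above background and the probe's own. Tables were handled with Python 3.11.15 and pandas 2.3.3, and figures drawn with matplotlib 3.10.9. All 10 genes are named, and from each further list up to 3 genes of smallest p among those called in either OVA contrast. For likeness, the 5 genes of highest r with each class are named. The genes and lists were chosen with earlier results of these data known.

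Alternatives were normexp background correction (offset 50) with and without spots whose local background was over 10 times the median, median and quantile scaling, other filters, the mean over probes, each probe on its own, fits of the compared groups alone, slide and replicate number as blocks, a trended robust prior, array weights, the authors' table, each array left out in turn, and slide 1 left out. Leaving out slide 2 or slide 3 was added after seeing the data.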

Additional observations from a re-analysis of the deposited data

How the results depend on the processing

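No called difference of a member changed sign under any alternative run, and 0 members were called between genotypes, or for the difference of the OVA effects, under any of them. In knockout, 1 identity gene was lower after OVA. That count was 0 with the slide block, with only the groups compared and without slide 1 or slide 2, 2 with normexp correction without spots of bright local background or with genes well above background on all 11 arrays, 3 in the authors' value table, and 4 with a trended robust prior or array weights. In wild type, 4 identity genes were lower, and the count was 3 with the slide block, 2 with no filter on dim probes, 1 with only the groups compared or without slide 2, and 0 without slide 1 or slide 3. The count of higher adhesion genes, 3 in each genotype, was 0 in both without slide 1, 0 in knockout without slide 2 and 0 in wild type without slide 3. The wild-type count of lower identity genes was 5 with normexp correction without spots of bright local background, quantile scaling or genes well above background on all 11 arrays. It was also 5 in the authors' value table and with a trended robust prior or array weights. These settings also called more of all genes lower than the 1857 of the main fit in wild type. In the order named, they called 2118, 2214, 2368 (of 18774 tested), 2676, 2439 and 5210. In knockout, where the main fit called 440, the same settings apart from quantile scaling called 846, 828, 1215, 1039 and 1569. Normexp correction that kept the bright spots gave 0 for all 4 counts and moved the median of all genes by -0.26 (knockout against wild type, after OVA and after saline alike). Without those spots it moved that of OVA in wild type by 0.10. It called 0 genes for OVA in either genotype, where the same correction without those spots called 1392 higher and 846 lower in knockout and 3198 higher and 2118 lower in wild type. With each array left out in turn, the counts were 0 to 3 (identity) and 0 to 3 (adhesion) in knockout and 0 to 5 and 3 to 4 in wild type. The causes were not tested, beyond the fewer arrays that leaving out a slide or an array leaves.

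The gap between adhesion and identity genes, 2.03 in knockout and 2.05 in wild type, was 1.59 and 1.46 with normexp correction, 1.35 and 1.53 with it but without bright spots, and 1.49 and 1.40 in the authors' value table. With the mean over members it was 2.32 in knockout, and the wild-type value is not given here. That mean takes in the measured Sele differences, 3.96 in knockout and 2.35 in wild type. The near equality of the genotypes is therefore stated for the medians only.

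Over all genes, 1352 rose and 440 fell in knockout and 2310 rose and 1857 fell in wild type. The slide block gave 770 and 69 in knockout and 1866 and 850 in wild type, only the groups compared 407 and 22, and 1442 and 581, array weights 2048 and 1569, and 5376 and 5210, and a trended robust prior 1796 and 1039 in knockout. With no filter the counts were 969 and 160 in knockout and 2047 and 1190 in wild type, and the authors' values gave 1641 and 1215, and 2409 and 2676. Without slide 1 they were 10 and 3, and 27 and 0, without slide 2 in knockout 3 and 0, and without slide 3 in wild type 452 and 47.

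Replicate numbers did not pair the samples: arrays of the same number deviated from their group means with correlations of -0.41 to 0.34, 4 of 15 over 0.1. The replicate block gave 0 identity genes lower in knockout and 639 genes higher and 40 lower. Arrays of the same slide correlated at -0.16 to 0.48, 12 of 15 over 0.1. Sele, below background in knockout saline, is the member whose size the signal limits most, and among genes well above background on all 11 arrays it was not tested.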
